A study of Mus musculus with 6 samples.

Results

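The genes described here build the peroxisome or carry out its lipid chemistry. They were selected on a list of 29 gene symbols, drawn up with results of these data already known, and on a sum of at least 10 counts over the 6 ovaries. All 29 of the 44788 genes in the deposited table met that minimum. The lowest sum was 200 counts, for Acox2, and no listed gene fell outside. RNA-seq was carried out on whole ovaries in 3 samples of wild-type Bnc1+/+ mice, numbered 1, 4 and 7, and 3 samples of mutant Bnc1tr/tr mice, numbered 1, 2 and 3. Each sample is called an ovary here. The mice of all 6 samples were 8 weeks old and of strain C57BL/6 J. Bnc1tr/tr mice are homozygous for a 5-base deletion (ccggg) in exon 4 of Bnc1, which shifts the reading frame and creates a premature stop codon. The change is carried by every cell of the mouse, so it is not limited to the oocyte, and Bnc1+/+ mice carry no engineered allele. The study states that littermates were compared, but the sample labels do not tie an ovary to a litter, nor do they say whether a sample held the ovaries of 1 mouse. The p values therefore set the genotype difference against the spread between samples of the same genotype, whatever mice or litters these samples stand for.

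Peroxisomes are organelles bounded by a single membrane that shorten very long and branched fatty acids, begin the synthesis of ether lipids such as plasmalogens, and break down the hydrogen peroxide that this chemistry releases. They are built by peroxins, the products of the Pex genes. One set of peroxins inserts membrane proteins, another brings enzymes folded in the cytosol into the matrix, and a further set divides the organelle. Steroid-producing cells of the ovary and the growing oocyte both handle large amounts of lipid.

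The count tables summed to 25247770 to 34406296 reads per ovary, and every Bnc1+/+ total was above every Bnc1tr/tr total. Expression is given as TMM-normalized CPM, which are counts scaled to a common library size and composition, and means carry their SD across the 3 ovaries per genotype. Log2 fold changes are Bnc1tr/tr against Bnc1+/+, and adjusted p values come from edgeR's quasi-likelihood test, two-sided, with Benjamini-Hochberg adjustment over 19423 genes and a threshold of 0.05. Bnc1 itself was counted 375, 444 and 381 times in Bnc1+/+ and 527, 355 and 326 times in Bnc1tr/tr (log2 fold change 0.12, SE 0.18, adjusted p = 0.733 by edgeR). Such totals cannot tell reads with the deletion from reads without it, so they do not check the genotype. The ovary with the most oviduct marker RNA was Bnc1tr/tr replicate 3, followed by Bnc1+/+ replicate 1, and an alternative added after seeing the data left out both.

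Of the 29 genes, 28 had enough reads to be tested and Acox2 did not. Among the 28, 3 were lower in Bnc1tr/tr ovaries (Pex10, Acox3 and Pex16), 0 were higher and 25 did not pass the test. Of all genes tested, 4.19% were lower and 2.88% were higher by the same rule. All 3 Bnc1tr/tr values lay below all 3 Bnc1+/+ values for 15 of the 28 genes and above them for 1, Pex26, against 15.8% and 15.0% of all genes tested. At an unadjusted p under 0.05, 14 were lower and 1 was higher, where 12.3% and 11.9% of all genes tested were. The log2 fold change was negative for 23 genes and positive for 5, with a median of -0.22, beside a median of 0.018 for all genes tested. As the list was drawn up with these values known, the counts describe it and were not used as a test. Summed over the 29 genes, expression was 1699, 1828 and 1824 CPM in Bnc1+/+ and 1477, 1594 and 1519 CPM in Bnc1tr/tr ovaries. The Bnc1tr/tr sums were all lower with TMM scaling, whose factors were 0.958 to 0.978 in Bnc1+/+ and 1.03 to 1.04 in Bnc1tr/tr ovaries. As these factors differ by genotype, the separation of the sums, and of genes with close ranges, depends on that scaling.

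**Figure D1:**
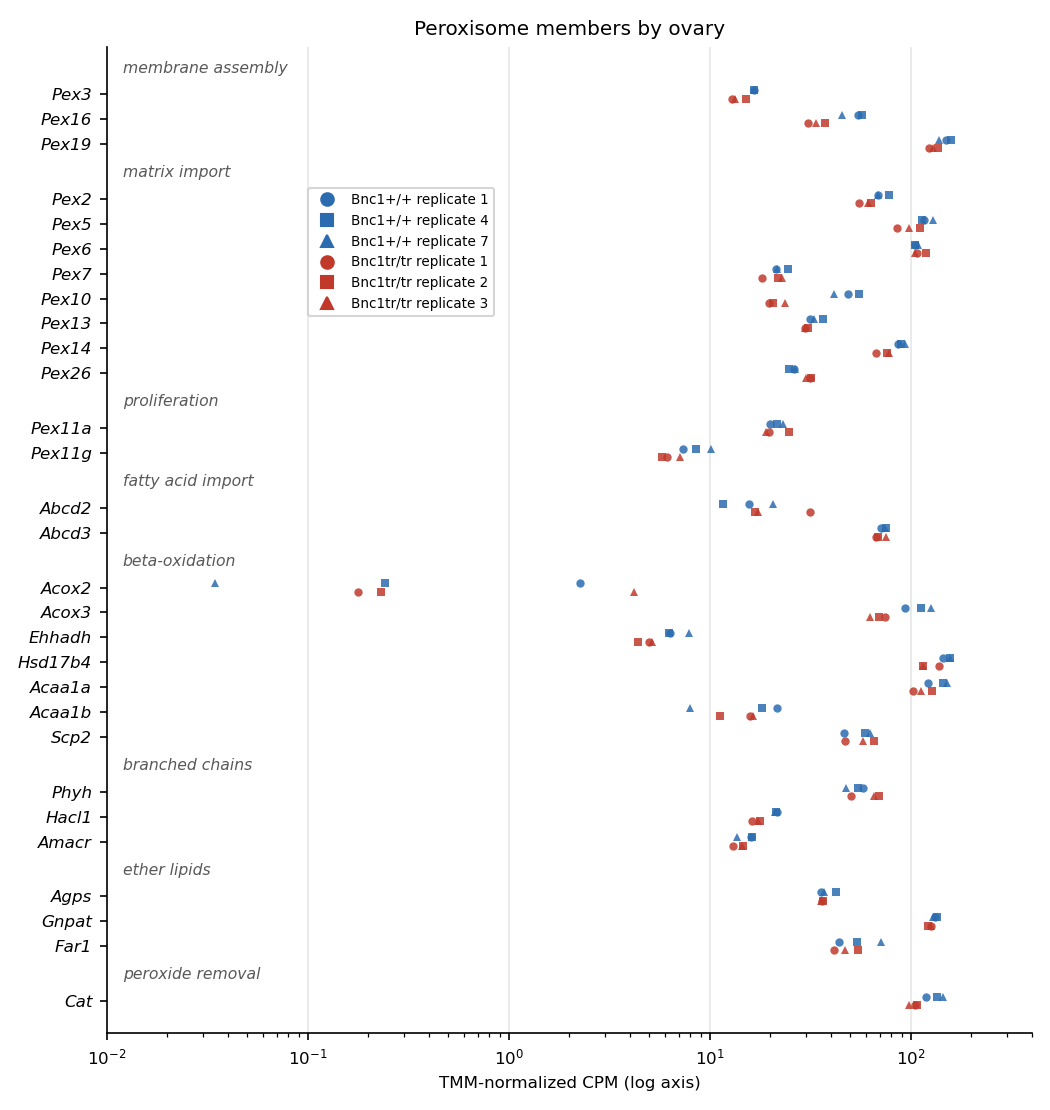
TMM-normalized CPM (log axis) of the 29 genes in each ovary, grouped by role, with Bnc1+/+ in blue and Bnc1tr/tr in red and a symbol for each replicate. Pex10 shows the widest separation between the genotypes, and Acox2 the widest scatter within them.

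Levels differed widely between genes. Per kilobase of annotated exon, catalase (Cat) had 50.6 ± 4.90 CPM in Bnc1+/+ ovaries (SD, n = 3) and ranked highest. The next was Hsd17b4, the multifunctional enzyme of peroxisomal beta-oxidation, at 44.8 ± 1.95 CPM per kilobase, and the ranges of these 2 genes overlapped (45.3 to 55.0 and 42.6 to 46.1). Pex19 followed at 39.0 and Gnpat at 36.7 CPM per kilobase. Pex10 ranked 12, at 14.6 CPM per kilobase. At the lower end stood Ehhadh with 2.29, Pex7 with 1.86 and Acox2 with 0.229 CPM per kilobase. Exons of 12 of the 29 genes overlap those of another annotated gene, among them Acaa1a with Myd88 and Acaa1b with Dlec1, so reads in the shared stretches may belong to either.

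Among the peroxins of membrane assembly, Pex16 was lower in Bnc1tr/tr ovaries. Its product sits in the membrane and helps to recruit PEX3, the anchor for the chaperone PEX19 and its cargo of new membrane proteins. Pex16 was at 54.5, 57.0 and 45.2 CPM in Bnc1+/+ and 30.8, 37.5 and 33.5 CPM in Bnc1tr/tr ovaries, with no overlap. It fell from 52.2 ± 6.23 to 33.9 ± 3.36 CPM (SD, n = 3) with a log2 fold change of -0.62 (SE 0.12, 95% interval -0.90 to -0.35, adjusted p = 0.0243 by edgeR). The log2 fold change was -0.60 without Bnc1+/+ replicate 1 and -0.56 without Bnc1+/+ replicate 4. It was -0.56 without Bnc1tr/tr replicate 1 and -0.61 without Bnc1tr/tr replicate 3. The call was lost in each of these fits, at edgeR adjusted p values of 0.0753, 0.120, 0.0521 and 0.0790 in that order. Without both ovaries highest in oviduct markers, the log2 fold change was -0.59 (SE 0.18, adjusted p = 0.185 by edgeR). These fits had fewer ovaries, so a lost call does not show that the difference rested on 1 ovary. Over 14 alternatives the log2 fold change lay between -0.72 and -0.52. Pex16 lies on chromosome 2 of GRCm38 from 92374676 to 92381217 on the plus strand, and its exons overlap those of Large2 on the opposite strand, listed in the table as Gyltl1b. That gene was at 29.1 ± 4.39 and 42.5 ± 12.6 CPM (SD, n = 3) with a log2 fold change of 0.55 (adjusted p = 0.182 by edgeR). Whether counting used the strand is not given in the sources used here, so reads of the pair may not be told apart.

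The partners of PEX16 did not pass the test. Pex3 had a log2 fold change of -0.27 (95% interval -0.51 to -0.03, adjusted p = 0.161 by edgeR) and Pex19 one of -0.20 (95% interval -0.40 to -0.0037, adjusted p = 0.199 by edgeR), and for both all Bnc1tr/tr values lay below all Bnc1+/+ values. Within each ovary, the count ratio of Pex16 to Pex3 was 3.29, 3.43 and 2.72 in Bnc1+/+ against 2.38, 2.49 and 2.53 in Bnc1tr/tr. The ratio was thus lower in each Bnc1tr/tr ovary.

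Pex10 showed the largest difference of the 28 genes tested. PEX10 is a RING-finger protein that, like PEX2, belongs to the ubiquitin ligase of the peroxisomal membrane, which marks the import receptor PEX5 so that it can be pulled back into the cytosol and used again. The values were 48.5, 55.0 and 41.2 CPM in Bnc1+/+ and 19.6, 20.5 and 23.6 CPM in Bnc1tr/tr ovaries, so the highest Bnc1tr/tr ovary was far below the lowest Bnc1+/+ ovary. Pex10 fell from 48.2 ± 6.91 to 21.2 ± 2.10 CPM (SD, n = 3), or to 44.0% of the Bnc1+/+ mean. Its log2 fold change was -1.18 (SE 0.13, 95% interval -1.49 to -0.88, adjusted p = 0.00358 by edgeR). All 14 alternatives kept the call, with log2 fold changes from -1.29 to -1.08 and adjusted p values up to 0.0333. The gene spans 155067016 to 155072433 on the plus strand of chromosome 4 (GRCm38), and no exon of it overlaps another annotated gene.

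Pex2 differed less than Pex10. It was at 71.7 ± 5.49 and 60.0 ± 4.21 CPM (SD, n = 3) with a log2 fold change of -0.26 (95% interval -0.47 to -0.04, adjusted p = 0.140 by edgeR). The count ratio of Pex10 to Pex2 within an ovary was 0.706, 0.705 and 0.603 in Bnc1+/+ against 0.354, 0.324 and 0.385 in Bnc1tr/tr. The ratio separated the genotypes without overlap, and as a ratio within a library it does not depend on the scaling between ovaries.

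**Figure D2:**
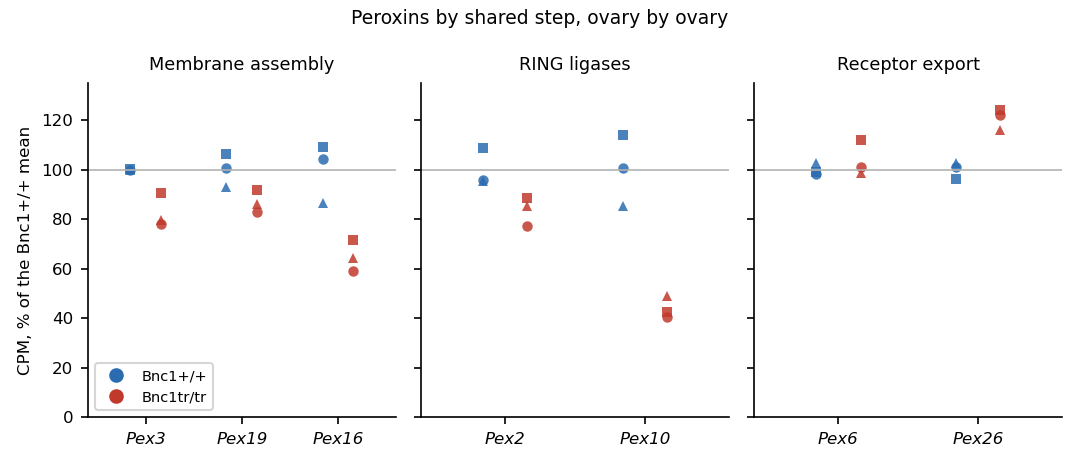
CPM of peroxins in each ovary as a percentage of the Bnc1+/+ mean of that gene, for membrane assembly (left), the RING ligases (centre) and the export of the import receptor (right), with Bnc1+/+ in blue and Bnc1tr/tr in red and circles, squares and triangles for replicates 1, 4 and 7 and replicates 1, 2 and 3. Pex10 in Bnc1tr/tr ovaries sits below every other gene shown, with a mean of 44.0% of the Bnc1+/+ mean.

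The import receptors and their docking site did not pass the test. PEX5 binds most matrix enzymes by their C-terminal targeting signal. Pex5 was at 116, 114 and 129 CPM in Bnc1+/+ and 85.5, 111 and 97.9 CPM in Bnc1tr/tr ovaries (log2 fold change -0.28, 95% interval -0.54 to -0.02, adjusted p = 0.173 by edgeR). Pex14, which encodes the docking protein, was at 85.9, 88.8 and 93.3 CPM in Bnc1+/+ and 66.8, 76.3 and 77.4 CPM in Bnc1tr/tr ovaries (log2 fold change -0.28, 95% interval -0.48 to -0.08, adjusted p = 0.0986 by edgeR). Neither gene had overlapping values, although Bnc1tr/tr replicate 2 came within a few CPM of the Bnc1+/+ range for Pex5. Pex13, another part of the docking site, had a log2 fold change of -0.17 (95% interval -0.37 to 0.04), again without overlap, and Pex7, the receptor for the N-terminal signal, one of -0.10 (95% interval -0.38 to 0.18), with overlap.

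PEX6 is an ATPase that helps to withdraw PEX5 from the membrane, and PEX26 anchors it there. Pex26 was the single gene of the 28 whose Bnc1tr/tr values were all higher, at 26.1, 24.8 and 26.5 CPM in Bnc1+/+ and 31.5, 31.9 and 29.9 CPM in Bnc1tr/tr ovaries. The difference, 0.27 on the log2 scale (95% interval 0.08 to 0.46), did not pass the test (adjusted p = 0.0933 by edgeR), but it did when libraries were scaled by their size alone (0.37, adjusted p = 0.0368). Pex6 had a log2 fold change of 0.05 (95% interval -0.13 to 0.24), whose sign turned without Bnc1tr/tr replicate 2. Counts of Pex26 over those of Pex6 were 0.250, 0.236 and 0.244 in Bnc1+/+ against 0.294, 0.269 and 0.286 in Bnc1tr/tr ovaries, without overlap.

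Peroxisomes elongate and divide with the help of PEX11 proteins. Pex11g was at 7.32, 8.55 and 10.1 CPM in Bnc1+/+ and 6.08, 5.77 and 7.08 CPM in Bnc1tr/tr ovaries, without overlap (log2 fold change -0.46, 95% interval -0.86 to -0.06, adjusted p = 0.155 by edgeR). Pex11a, the form that fibrates raise in liver, had a log2 fold change of -0.02 (95% interval -0.32 to 0.27), and its sign turned with library size alone and without 3 of the 6 ovaries.

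**Figure D3:**
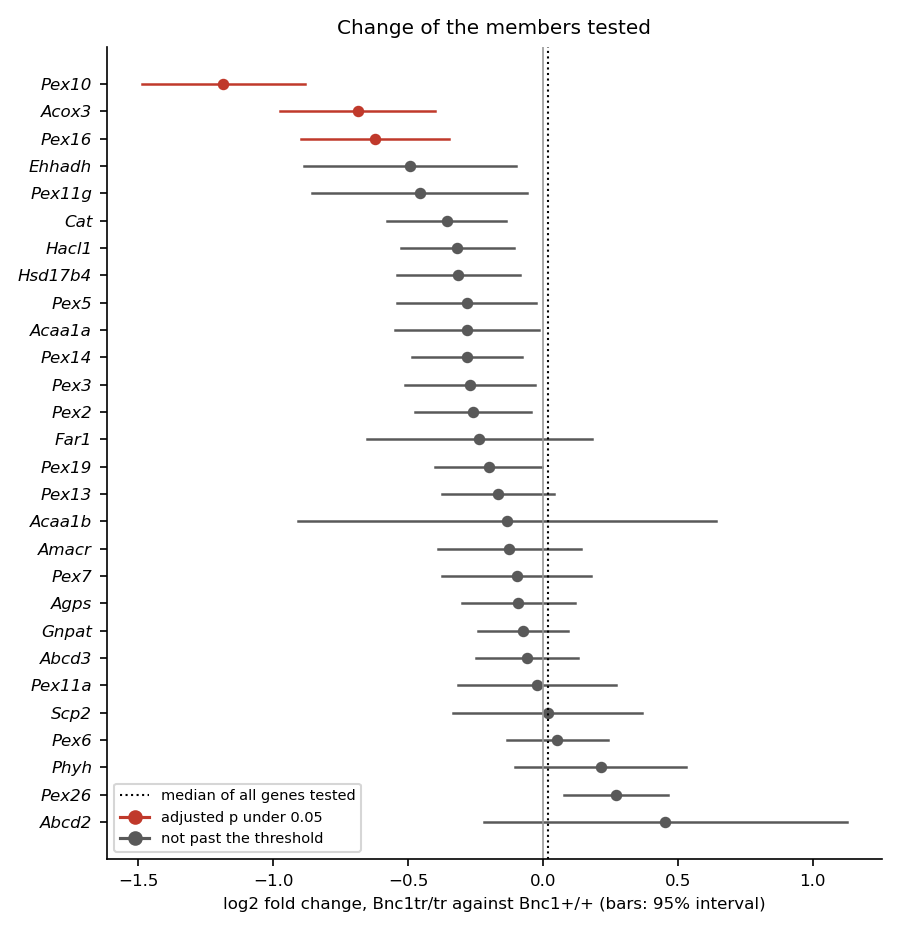
Log2 fold change of the 28 genes tested, Bnc1tr/tr against Bnc1+/+, with 95% intervals, ordered by log2 fold change, with genes past the threshold in red. Of the 28 intervals, 14 lie below 0, 13 span it and 1, that of Pex26, lies above it.

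Fatty acids enter the peroxisome through ABC transporters of the D family. Abcd3, which carries branched and dicarboxylic acyl-CoA, had a log2 fold change of -0.06 (95% interval -0.25 to 0.13). Abcd2, a carrier of very long and polyunsaturated chains, was at 15.7, 11.6 and 20.7 CPM in Bnc1+/+ and 31.4, 16.8 and 17.3 CPM in Bnc1tr/tr ovaries (log2 fold change 0.45, 95% interval -0.22 to 1.13, adjusted p = 0.386 by edgeR). Bnc1tr/tr replicate 1 stood above the rest, and it was also the ovary with the most Adipoq, the adipocyte hormone adiponectin, whose CPM were 6.13, 0.574 and 10.1 in Bnc1+/+ against 51.4, 30.8 and 2.43 in Bnc1tr/tr ovaries. Of 12 adipocyte markers tested, 1 was lower (Plin4) and 1 was higher (Plin1), beside 4.19% and 2.88% of all genes tested. A positive log2 fold change was seen for 11 of the 12, and the median was 2.23. The sums ran from 766 to 1315 CPM in Bnc1+/+ ovaries, mostly Plin4, and from 87.5 to 621 CPM in Bnc1tr/tr ovaries. Without Plin4 the sums were 77.1, 24.5 and 138 CPM in Bnc1+/+ and 536, 359 and 49.4 CPM in Bnc1tr/tr ovaries, so Bnc1tr/tr replicates 1 and 2 stood above the other ovaries. Ucp1, the marker of brown fat, did not exceed 1 count in any ovary. Cidea of the same list was counted 60, 11 and 2 times in Bnc1+/+ and 13, 4 and 145 times in Bnc1tr/tr ovaries. The part of adipose RNA in the Abcd2 values was not tested.

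In peroxisomal beta-oxidation, Acox3 was lower in Bnc1tr/tr ovaries. ACOX3 is an acyl-CoA oxidase for branched chains, whose reaction passes electrons to oxygen and gives hydrogen peroxide. Acox3 was at 93.9, 112 and 126 CPM in Bnc1+/+ and 74.2, 69.7 and 62.6 CPM in Bnc1tr/tr ovaries, with no overlap. It fell from 111 ± 16.2 to 68.8 ± 5.84 CPM (SD, n = 3) with a log2 fold change of -0.69 (SE 0.12, 95% interval -0.97 to -0.40, adjusted p = 0.0194 by edgeR). The edgeR adjusted p was 0.0949 without Bnc1+/+ replicate 4, 0.0617 without Bnc1+/+ replicate 7 and 0.0699 without Bnc1tr/tr replicate 3. Without both ovaries highest in oviduct markers it was 0.0555, at a log2 fold change of -0.74. That fit had fewer ovaries of each genotype. Over 14 alternatives the log2 fold change lay between -0.80 and -0.59, and the call was kept in 10. Acox3 spans 35583040 to 35615352 on the plus strand of chromosome 5 (GRCm38) and overlaps an antisense gene, 4931431C16Rik, with too few reads to be tested.

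Acox2, the oxidase for bile acid intermediates, was the gene too low to test, with 61, 8 and 1 counts in Bnc1+/+ and 5, 6 and 119 counts in Bnc1tr/tr ovaries. The high ovaries were Bnc1+/+ replicate 1 and Bnc1tr/tr replicate 3, so neither genotype was uniformly higher. The same 2 ovaries had the highest sums of 10 oviduct markers, which were 181, 51.7 and 45.4 CPM in Bnc1+/+ and 52.5, 53.3 and 598 CPM in Bnc1tr/tr ovaries. Ovgp1, the oviductal glycoprotein, was at 106, 11.7 and 15.1 CPM in Bnc1+/+ and 1.60, 18.0 and 423 CPM in Bnc1tr/tr ovaries. None of the 9 oviduct markers that could be tested passed the test between the genotypes (2 at an unadjusted p under 0.05), and their part in the Acox2 counts was not tested. Cidea, of the adipocyte list, was also highest in Bnc1tr/tr replicate 3 and Bnc1+/+ replicate 1, at 5.11 and 2.23 CPM. Its relation to Acox2 was not tested either.

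The later steps of the cycle had smaller differences. Ehhadh, the L-bifunctional enzyme, was at 6.32, 6.22 and 7.90 CPM in Bnc1+/+ and 4.98, 4.39 and 5.15 CPM in Bnc1tr/tr ovaries (log2 fold change -0.49, 95% interval -0.89 to -0.10, adjusted p = 0.126 by edgeR). Hsd17b4, the D-bifunctional enzyme, was at 145, 156 and 157 CPM in Bnc1+/+ and 138, 114 and 115 CPM in Bnc1tr/tr ovaries (log2 fold change -0.31, 95% interval -0.54 to -0.09, adjusted p = 0.101 by edgeR). Both genes had values without overlap, and Hsd17b4 passed the test when Bnc1tr/tr replicate 1, the nearest to the Bnc1+/+ range, was left out (-0.41, adjusted p = 0.0344 by edgeR).

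The thiolases cut off the shortened chain. Acaa1a was at 122, 144 and 150 CPM in Bnc1+/+ and 103, 128 and 112 CPM in Bnc1tr/tr ovaries, with overlap (log2 fold change -0.28, 95% interval -0.55 to -0.01, adjusted p = 0.186 by edgeR). Its near copy Acaa1b had a log2 fold change of -0.13 with a wide 95% interval of -0.91 to 0.64, and its sign turned without Bnc1+/+ replicate 1 or Bnc1tr/tr replicate 2. In the annotation, 19.3% of the 100-base windows in Acaa1b exons also occur in Acaa1a, so the split of reads between the 2 genes is uncertain. Scp2, which encodes a thiolase joined to a sterol carrier, had a log2 fold change of 0.02 (95% interval -0.33 to 0.37), and 21.8% of its windows occur in the pseudogene Scp2-ps2.

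Some branched chains are first shortened by alpha-oxidation. Hacl1, the 2-hydroxyacyl-CoA lyase of that route, was at 21.6, 21.4 and 21.0 CPM in Bnc1+/+ and 16.2, 17.7 and 17.4 CPM in Bnc1tr/tr ovaries (log2 fold change -0.32, 95% interval -0.53 to -0.11, adjusted p = 0.0770 by edgeR). The values did not overlap and varied little within each genotype, although 23.9% of the windows of Hacl1 occur in the overlapping gene model Gm49387. Phyh, the phytanoyl-CoA hydroxylase of the same route, had a log2 fold change of 0.21 (95% interval -0.10 to 0.53), and Amacr, the racemase that prepares branched chains for beta-oxidation, one of -0.12 (95% interval -0.39 to 0.14).

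None of the 3 ether lipid genes passed the test (0 at an unadjusted p under 0.05). Gnpat and Agps catalyse the first steps of plasmalogen synthesis inside the peroxisome. Gnpat was at 132 ± 3.33 and 125 ± 2.41 CPM (SD, n = 3) with a log2 fold change of -0.07 (95% interval -0.24 to 0.09) and no overlap, and Agps had one of -0.09 (95% interval -0.30 to 0.12), with overlap. These intervals leave room for a decrease of 0.24 and 0.30 on the log2 scale, and the sign of both turned with library size alone. Far1, which supplies the fatty alcohol and limits the rate of the route, had a log2 fold change of -0.24 (95% interval -0.65 to 0.18), with overlap, and ran from -0.39 to -0.04 over the 14 alternatives.

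Catalase removes hydrogen peroxide in the matrix. Cat was at 118, 134 and 144 CPM in Bnc1+/+ and 105, 107 and 97.5 CPM in Bnc1tr/tr ovaries, without overlap. Its log2 fold change was -0.36 (SE 0.10, 95% interval -0.58 to -0.14, adjusted p = 0.0657 by edgeR). It passed the test by DESeq2 (-0.36, adjusted p = 0.0239) and in none of the other 13 alternatives.

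The 250 bases upstream of the RefSeq start of Pex10 (chr4:155066780-155067029, plus strand) and Acox3 (chr5:35582784-35583033, plus strand) are shown (RefSeq, GRCm38.p6). Pex10 and Acox3 are called genes of the list, and the window of Pex16, the other called gene, is not shown. Capitals mark matches on either strand to GGGCGG, the GC box bound by Sp factors, or to GGAATG, the core read by TEAD factors, the DNA-binding partners of YAP.
Pex10: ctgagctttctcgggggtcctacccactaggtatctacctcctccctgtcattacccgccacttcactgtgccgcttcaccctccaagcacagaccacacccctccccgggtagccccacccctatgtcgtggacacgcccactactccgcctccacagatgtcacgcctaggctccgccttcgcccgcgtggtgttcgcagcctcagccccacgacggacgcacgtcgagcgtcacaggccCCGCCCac
Acox3: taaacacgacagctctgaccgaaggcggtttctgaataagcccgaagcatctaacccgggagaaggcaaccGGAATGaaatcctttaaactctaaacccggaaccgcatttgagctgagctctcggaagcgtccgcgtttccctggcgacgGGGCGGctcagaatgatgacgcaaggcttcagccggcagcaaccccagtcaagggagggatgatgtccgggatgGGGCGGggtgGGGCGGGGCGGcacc
The Pex10 window held 1 GC box, near its 3′ end, and the Acox3 window held 4 GC boxes and 1 TEAD match. Windows of 300 bases around the start, 250 before it and 50 after, were found for 24 of the 29 genes by symbol. They were searched on both strands beside the windows of 27025 genes, and a gene counted if any of its windows matched. The 27025 were not limited to genes expressed in the ovary, so the shares do not compare like with like. GGGCGG was present in 18 of the 24, and in 38.2% of all genes. CCAAT was present in 11 (41.1% of all genes) and GGAATG in 3, Pex11a, Acox3 and Ehhadh (16.6%). AGGTCA, the core bound by nuclear receptors, was present in 4, Pex11g, Scp2, Phyh and Cat (18.1%). Copies of AGGTCA in the same direction with 1 base between them, the arrangement bound by PPAR with RXR, were present in 0 of the 24 (0.0481% of all genes), a search that overlaps the one for AGGTCA. TCACNCCAC, the sterol regulatory element, was present in Ehhadh alone (1.44%). As the direct repeat was so rare among all genes, its count of 0 says nothing about the list. These are exact matches of letters, so inexact copies of a site were not found. A window without a match also says nothing about binding elsewhere.

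Beside the 29 genes, a second list held 71 other peroxisomal genes, of which 65 were tested, 13 were lower and 1 was higher. By the same rule 4.19% of all genes tested were lower and 2.88% were higher. The median log2 fold change of this list was -0.09. The largest changes among its called genes went in both directions. Acot5, a peroxisomal acyl-CoA thioesterase, rose from 0.200 ± 0.0828 to 4.01 ± 0.975 CPM (SD, n = 3) with a log2 fold change of 4.29 (SE 0.38, adjusted p = 0.0018 by edgeR), from 3, 7 and 8 counts to 131, 75 and 127. The related Acot3 shares 6.86% of the windows of Acot5. Baat, which joins bile acids or fatty acids to amino acids, was counted 11, 26 and 31 times in Bnc1+/+ and 2, 1 and 7 times in Bnc1tr/tr ovaries (log2 fold change -2.61, adjusted p = 0.0493 by edgeR). Without Bnc1+/+ replicate 1, 4 or 7 or Bnc1tr/tr replicate 1 or 2, Baat no longer passed (edgeR adjusted p 0.0559, 0.169, 0.161, 0.121 and 0.102).

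Genes for acyl-CoA handling were among those called lower. Acsl4, which activates arachidonic acid and other polyunsaturated fatty acids, fell from 183 ± 9.06 to 65.1 ± 23.9 CPM (SD, n = 3) with a log2 fold change of -1.49 (adjusted p = 0.0153 by edgeR, 0.0844 without Bnc1+/+ replicate 4 and 0.0635 without Bnc1+/+ replicate 7). Acbd5, the tether to the endoplasmic reticulum that binds very long acyl-CoA, had a log2 fold change of -0.75 (adjusted p = 0.0059 by edgeR).

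Redox and membrane proteins were also among the called genes. Idh1, the NADP-dependent dehydrogenase shared by cytosol and peroxisome, fell from 1705 ± 146 to 672 ± 247 CPM (SD, n = 3) with a log2 fold change of -1.34 (adjusted p = 0.0283 by edgeR, and 0.0574, 0.122 and 0.0977 without Bnc1+/+ replicates 1, 4 and 7). Ephx2, the soluble epoxide hydrolase, fell from 964 ± 175 to 489 ± 15.7 CPM (SD, n = 3) with a log2 fold change of -0.98 (adjusted p = 0.00704 by edgeR). Tmem135, a membrane protein of peroxisomes and mitochondria, had a log2 fold change of -0.84 (adjusted p = 0.0052 by edgeR). Crat, Ide, Lonp2 and Nudt7 were called as well, with log2 fold changes from -0.56 to -0.40, but each lost its call without Bnc1+/+ replicate 1, 4 or 7 or Bnc1tr/tr replicate 3 (edgeR adjusted p from 0.0528 to 0.136). Nudt7 lost it without the other 2 ovaries as well (0.0680 and 0.0550). Without both ovaries highest in oviduct markers, 4 of the 13 genes were called lower, among them Ephx2, Tmem135 and Baat.

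**Figure D4:**
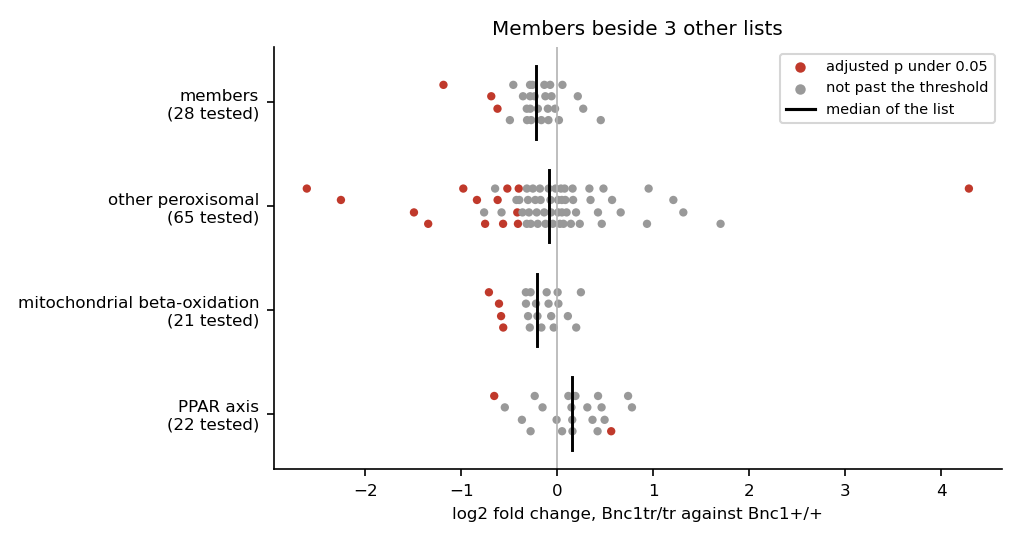
Log2 fold change of each tested gene in 4 lists, Bnc1tr/tr against Bnc1+/+, with genes past the threshold in red and the median of each list as a black line. The medians are -0.22, -0.09, -0.21 and 0.16 from top to bottom.

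Mitochondria carry out beta-oxidation of shorter chains with enzymes of their own. Of 21 mitochondrial beta-oxidation genes tested, 4 were lower (Cpt2, Acaa2, Echs1 and Hadh, log2 fold changes from -0.71 to -0.56) and 0 were higher, beside 4.19% and 2.88% of all genes tested. The median of the 21 genes was -0.21, close to that of the 28 peroxisomal genes. At an unadjusted p under 0.05, 10 were lower and 0 were higher, beside the same 12.3% and 11.9% of all genes tested. Hadh, Echs1 and Acaa2 lost their calls without Bnc1+/+ replicate 4 (edgeR adjusted p 0.0871, 0.0653 and 0.105), Hadh without Bnc1tr/tr replicate 3 (0.0601) and Acaa2 without Bnc1+/+ replicate 7 (0.0728). PPARs are the nuclear receptors that raise many peroxisomal genes when fatty acids or fibrates bind them. Ppara had a log2 fold change of 0.46 (95% interval 0.01 to 0.92, adjusted p = 0.201 by edgeR), Ppard one of 0.05 and Pparg one of -0.15. Of 22 tested genes of the PPAR list, 1 was lower, Vnn1 (-0.66, adjusted p = 0.0308 by edgeR), and 1 was higher, the fatty acid binding protein Fabp3 (0.56, adjusted p = 0.0370 by edgeR). Vnn1 lost its call without Bnc1+/+ replicate 1, 4 or 7 or Bnc1tr/tr replicate 3 (edgeR adjusted p 0.0793, 0.134, 0.0556 and 0.0735), and Fabp3 without Bnc1+/+ replicate 1, 4 or 7 or Bnc1tr/tr replicate 1 or 3 (0.0537, 0.133, 0.101, 0.0760 and 0.101). Without both ovaries highest in oviduct markers, none of these 6 called genes passed, with edgeR adjusted p values from 0.0691 to 0.155.

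Some markers of ovarian cell types differed between the genotypes too, where 4.19% of all genes tested were lower and 2.88% were higher. Of 15 corpus luteum markers, 8 were lower in Bnc1tr/tr ovaries, and none was at 0 throughout. The other 7 did not pass the test, and 2 of these, Cd36 and Edn2, had positive log2 fold changes of 0.79 and 0.64. The largest parts of the sum were Cyp11a1 (10158 ± 959 and 3547 ± 1447 CPM) and Hsd3b1 (8430 ± 524 and 5114 ± 1013 CPM, SD, n = 3, Bnc1+/+ first). The sum of the 15 was 23658 to 28362 CPM in Bnc1+/+ and 7545 to 12976 CPM in Bnc1tr/tr ovaries, and Lhcgr, the luteinizing hormone receptor, fell from 691 ± 132 to 85.9 ± 6.90 CPM (SD, n = 3, log2 fold change -3.01, adjusted p = 0.000235 by edgeR). Of 14 oocyte markers, 4 were higher, with sums of 649 to 834 and 825 to 1277 CPM. Of 12 granulosa markers, 1 was higher (Amh), with sums of 4868 to 6144 and 5212 to 7987 CPM, and of 9 theca and interstitial markers 1 was higher (Nr2f2). In whole ovaries, fewer cells of a type and less RNA per cell cannot be told apart, for Pex10, Pex16 and Acox3 as for any other gene. The part of the luteal markers in these 3 results was not tested. None of 9 macrophage markers passed the test (1 at an unadjusted p under 0.05, sums of 373 to 394 and 240 to 457 CPM), nor did any of the 3 erythroid markers tested (0 at an unadjusted p under 0.05, with 2 of the list's 6 genes at 0 throughout). Of hepatocyte markers, 3 were tested and 1 was higher (Apoa1), while Alb, albumin, did not exceed 2.66 CPM in any ovary.

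**Figure D5:**
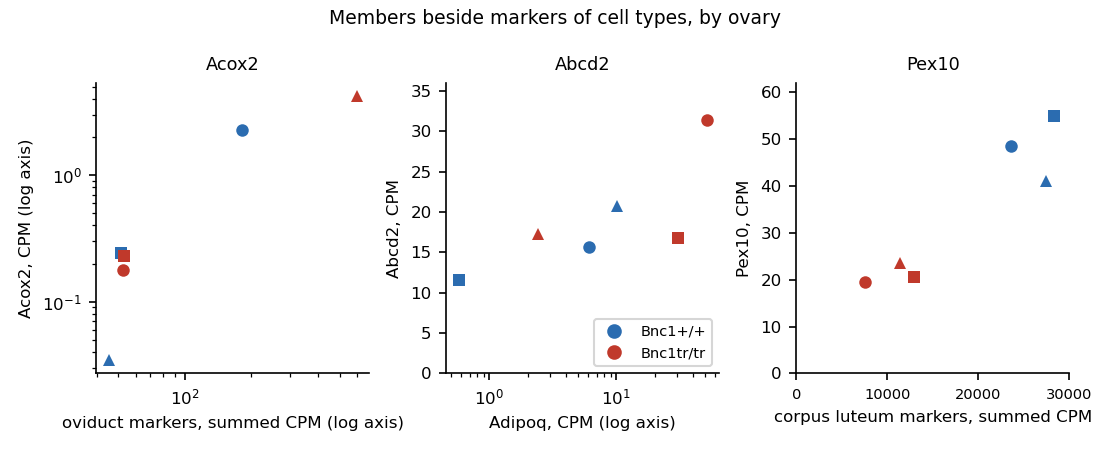
Acox2 against the summed oviduct markers (left, both log axes), Abcd2 against Adipoq (centre, log x axis) and Pex10 against the summed corpus luteum markers (right), all in CPM, with 1 point per ovary, Bnc1+/+ in blue and Bnc1tr/tr in red, and circles, squares and triangles for replicates 1, 4 and 7 and replicates 1, 2 and 3. The 2 ovaries with oviduct sums of 181 and 598 CPM have the most Acox2, and the 3 Bnc1tr/tr ovaries are lower than the Bnc1+/+ ovaries on both axes of the right panel.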

How the data were processed

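Total RNA of 6 whole ovary samples was extracted with TRIzol by the authors, and single-end libraries were prepared for the Ion Proton platform (kit: Ion Total RNA-Seq, v2.0) and sequenced on it. The deposited values are raw counts, whole numbers of reads per gene symbol without normalization. The submitters' processing notes name the builds mm10 and Sscrofa10.2. The aligner, the counting tool, the annotation and the use of strand are not given in the sources used here.

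Genes were filtered with filterByExpr (minimum count 10; 19423 of 31717 genes with a count), normalized with TMM and compared with glmQLFit and glmQLFTest of edgeR 4.0.16 (R 4.3.3), with no covariate. Alternatives used DESeq2 1.42.0, its size factors, library size alone, limma-voom (limma 3.58.1), a robust fit, other filters and each ovary left out. The scripts were tested on simulated data. Totals of all ovaries differed, and the chi-square per degree of freedom between replicates of a genotype was 17.0 to 64.4, so no library was counted as deposited in duplicate. TMM factors were 0.958 to 0.978 in Bnc1+/+ and 1.03 to 1.04 in Bnc1tr/tr ovaries. Scaling by library size alone moved the median log2 fold change of all genes tested from 0.018 to 0.12.

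The members, the lists and the markers were written by hand and chosen with earlier results of these data known. Values per ovary are given for the called members and those next in absolute log2 fold change up to 12, and, from the other lists, for called genes up to the 8 largest with the PPAR receptors. Some genes that this rule selects are not reported here. Positions, lengths, exon overlaps and 100-base windows came from GRCm38 with GENCODE M21, and promoter windows from RefSeq (GRCm38.p6). Expression per kilobase divided CPM by the union of annotated exons. No sample column was left unmapped.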

Additional observations from a re-analysis of the deposited data

How the results depend on the processing

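No paired analysis was possible because the genotypes share the replicate number 1 alone and the labels give no litter. The number of listed genes called lower, 3, became 1 to 3 when each ovary was left out (1 without Bnc1+/+ replicate 4 and 1 without Bnc1tr/tr replicate 3), and became 1 without both ovaries highest in oviduct markers, an alternative chosen after seeing the data, 4 by DESeq2, 14 at an unadjusted p under 0.05 and 6 at an adjusted p under 0.1. The count of genes called higher, 0, became 1 with library size alone, 1 at an unadjusted p and 1 at an adjusted p under 0.1, and stayed at 0 in each leave-one-out fit. The number of other peroxisomal genes called lower, 13, became 5 to 11 when an ovary was left out (7, 5 and 5 without Bnc1+/+ replicates 1, 4 and 7 and 8 without Bnc1tr/tr replicate 3), 4 without both ovaries and 21 at an unadjusted p. The 1 called higher became 5 with library size alone, 2 with no filter, 0 with at least 10 counts in every ovary (Acot5 was then not tested), 4 by DESeq2, 2 with the robust fit, 1 to 3 in leave-one-out fits (3 without Bnc1tr/tr replicate 1 and 3 without replicate 2), 9 at an unadjusted p and 5 at an adjusted p under 0.1.

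Log2 fold changes that turned sign, none of them called, were all small. With library size alone they were 0.0021 for Pex7, 0.076 for Pex11a, 0.040 for Abcd3, 0.0079 for Agps and 0.026 for Gnpat. When each ovary was left out they ran from -0.0043 (without Bnc1tr/tr replicate 2) to 0.090 for Pex6, from -0.15 to 0.046 for Pex11a (0.020, 0.028 and 0.046 without Bnc1+/+ replicate 7 and Bnc1tr/tr replicates 1 and 3), from -0.46 to 0.14 for Acaa1b and from -0.11 to 0.14 for Scp2. For Acaa1b and Scp2 the sign turned without Bnc1+/+ replicate 1 or Bnc1tr/tr replicate 2 (0.14 and 0.015 for Acaa1b, -0.11 and -0.097 for Scp2). Without both ovaries highest in oviduct markers they were 0.046 for Acaa1b and -0.12 for Scp2. Without both ovaries, the log2 fold change was -0.59 for Pex16 (adjusted p = 0.185 by edgeR) and -0.74 for Acox3 (adjusted p = 0.0555 by edgeR). The cause of these changes was not tested. With 3 ovaries per genotype, 95% intervals of the genes not called reached 0.17 to 0.78 on either side of the log2 fold change, so small differences were not detectable.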
